A study of Mus musculus with 2 samples.

Results

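The cells described here are Ly6c2-high classical monocytes from pressure-overloaded mouse hearts, 80 of the 857 cells that passed the mitochondrial limit and of the 878 cells in the matrix. A cell was taken when mitochondrial genes made up at most 25% of its counts and when, with its counts scaled to a total of 1000000 (CPM), Csf1r was at least 50, Ly6c2 at least 200 and C1qa, C1qb and C1qc together under 200. The 80 cells were 9.33% of the kept cells, with an exact 95% binomial interval of 7.47% to 11.5%. Csf1r encodes the receptor for macrophage colony-stimulating factor, Ly6c2 the main transcript behind the Ly6C surface antigen, and the C1q genes the 3 chains of complement C1q, which resident macrophages make.

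All cells came from the hearts of Cdh5-CreERT2;REFLEX mice that had received tamoxifen and then transverse aortic constriction (TAC), an operation that narrows the aorta and loads the left heart. Cdh5-CreERT2 is a tamoxifen-inducible Cre recombinase driven by the promoter of an endothelial cadherin, and REFLEX is a reporter whose GFP, per the series record, labels interacting cells. Cells negative and positive for CD45, the common leukocyte antigen, were sorted as GFP-negative and GFP-positive, pooled, and 20000 were loaded on BD Rhapsody for 1 transcriptome library and 1 hashtag library. No heart without TAC, and no second library, was analysed here, so every statement compares cells within 1 library and no test between animals or conditions was possible.

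Classical monocytes are short-lived phagocytes that leave the bone marrow through the chemokine receptor Ccr2 and enter injured tissue. In an overloaded or infarcted heart they are known as a source of inflammatory mediators and of newly recruited macrophages. In blood they can become patrolling monocytes, which lose Ly6C and Ccr2, depend on the nuclear receptor Nr4a1 and crawl along the endothelium, and in tissue they can become macrophages or dendritic-like cells that present antigen on MHC class II.

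The gene that chose these cells, Ly6c2, belongs to a cluster of near copies, and the promoter windows are shown because they make plain how alike those copies are. Each window runs from 250 bases before to 50 bases after the start of the gene in RefSeq (mouse build GRCm38.p6, minus strand, printed 5′ to 3′). The deposited tables were made on GRCm39 and carry no coordinates. Ly6c2 lies at chr15:75111922-75112221, Ly6a2 at chr15:75135079-75135378, Ly6c1 at chr15:75048788-75049087 and Chil3, the other leading gene, at chr3:106167515-106167814. Capitals mark GGAAGT, a core of the binding motif of ETS factors such as PU.1, or its reverse complement ACTTCC, both strands having been searched.
Ly6c2: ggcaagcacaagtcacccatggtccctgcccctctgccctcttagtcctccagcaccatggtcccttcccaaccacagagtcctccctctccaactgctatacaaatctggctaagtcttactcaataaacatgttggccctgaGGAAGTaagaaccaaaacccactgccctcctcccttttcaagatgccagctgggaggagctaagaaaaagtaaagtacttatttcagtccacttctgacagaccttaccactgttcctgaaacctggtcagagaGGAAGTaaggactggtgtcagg
Ly6a2: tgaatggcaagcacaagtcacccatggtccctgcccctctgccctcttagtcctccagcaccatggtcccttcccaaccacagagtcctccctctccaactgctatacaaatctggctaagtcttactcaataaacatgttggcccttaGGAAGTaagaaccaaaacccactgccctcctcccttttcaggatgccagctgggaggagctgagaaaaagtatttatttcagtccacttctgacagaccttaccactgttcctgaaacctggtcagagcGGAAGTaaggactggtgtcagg
Ly6c1: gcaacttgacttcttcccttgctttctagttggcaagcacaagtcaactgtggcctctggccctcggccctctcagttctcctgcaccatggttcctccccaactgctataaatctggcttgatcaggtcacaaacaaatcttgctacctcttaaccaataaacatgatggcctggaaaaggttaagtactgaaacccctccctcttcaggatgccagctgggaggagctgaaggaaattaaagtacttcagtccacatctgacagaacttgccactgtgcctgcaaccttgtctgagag
Chil3: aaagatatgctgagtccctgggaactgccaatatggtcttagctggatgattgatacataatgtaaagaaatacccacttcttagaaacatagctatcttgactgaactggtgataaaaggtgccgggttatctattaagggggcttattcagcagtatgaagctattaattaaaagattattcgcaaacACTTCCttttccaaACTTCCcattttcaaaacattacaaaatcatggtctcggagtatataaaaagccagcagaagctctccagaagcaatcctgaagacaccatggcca
Over their aligned bases the windows of Ly6c2 and Ly6a2 were 98.3% identical, those of Ly6c2 and Ly6c1 78.2% and those of Chil3 and its neighbour Chil4 92.6%. Ly6c2 and Ly6a2 each held 2 GGAAGT matches, Ly6c1 held 0 and Chil3 held 2, both in the reverse direction. The longer form GAGGAAGT was found in both Ly6c2 matches and not in those of Ly6a2. Of all 27025 promoter windows, 24.1% held GGAAGT and 3.25% held GAGGAAGT. Of the 15 genes with the highest ratio to all other cells, 13 matched a window, and 8 of these held GGAAGT and 2, Ly6c2 and Prtn3, held GAGGAAGT. A match describes the letters of a window and nothing about binding.

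Near copies also bear on the counts. In the classical monocytes Ly6c2 had 27174 counts and Ly6c1 21.04, and of the Ly6c2 values above 0 only 17.5% were whole numbers. The longest protein-coding transcripts of this pair are 97.6% identical in GENCODE M21. For Ly6a2 and its neighbour Ly6a the counts were 4093 and 4656. For Chil3 and Chil4 they were 209458 and 44.4, with transcripts 94.4% identical, and for Lyz2 and Lyz1 they were 491854 and 371. No source used here tells how the authors' counting divided reads between such copies, so levels of these genes are uncertain to that extent. The copies were chosen for this check after their values were seen.

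By the rule itself, Ly6c2 ran from 234 to 10623 CPM with a median of 922 in the 80 cells, Csf1r from 53.9 to 2282 with a median of 263, and the C1q sum from 0 to 150 with a median of 4.69. These values chose the cells and are given as a description. Just inside the Ly6c2 limit lay 5 cells between 234 and 273 CPM, and just outside it, for that reason alone, 14 cells between 102 and 181. Just inside the Csf1r limit lay 11 cells under 100 CPM (53.9 to 99.9), and just outside it, with Csf1r between 25 and 50, 4 cells (29.6 to 39.3). The C1q sum alone kept out 6 cells, which held 300.4 to 9869 CPM, and the mitochondrial limit alone kept out 0.

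Sequencing depth was not the same on both sides of the comparisons. The classical monocytes had a median of 220409 counts per cell (42076 to 706332) and 6468 genes, against 73031 counts and 3507 genes in the 777 other kept cells. The 112 patrolling monocytes, defined by Csf1r of at least 50, Ly6c2 under 200, the C1q sum under 200 and Ace plus Treml4 of at least 50 CPM, had a median of 98422 counts. The 46 macrophages, defined by Csf1r of at least 50 and a C1q sum of at least 200 CPM, had 241197. The median mitochondrial share was 1.71% in classical monocytes and 2.84% in all other cells. Levels are therefore given as CPM, and shares of cells with a gene after thinning every cell to 25000 counts. What the difference in depth does to the ratios of levels was not tested. Intervals are exact at 95% and cover counting error only.

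The label was checked against its 5 markers, each counted as present at 50 CPM or more. Of the 80 cells, 49 held all 5, 14 held 4, 7 held 3, 6 held 2 and 4 held 1, so 70 cells held at least 3. Every cell held Ly6c2 by the rule, and patrolling monocytes were defined by little of it, so the classes were set side by side over the other 4 markers. At least 3 of these 4 were found in 63 of the 80 classical monocytes, 14 of 112 patrolling monocytes, 23 of 46 macrophages, 28 of 137 cells of no named class, 2 of 220 neutrophils, 2 of 165 B cells and 0 of 97 T cells. Many C1q-positive macrophages thus held them too.

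The 10 cells with fewer than 3 markers did not look like the other 70. In 9 of them at least 5 of 9 neutrophil markers reached 50 CPM, which was so in 1 of the 70, and Ccr2 and F13a1 were both at 0 in those 9 cells. The summed neutrophil markers stood at 67249 CPM in the 10 cells and 961.1 CPM in the 70, against 22138 CPM in all other cells. Per cell the sum ran from 163 to 248313 CPM in the 10 cells and from 147 to 7378 CPM in the 70. S100a8, a calcium-binding alarmin abundant in neutrophils, ran from 144 to 87681 CPM in the 9 cells. The tenth cell had 3174 CPM of Ccr2 and 61.6 CPM of S100a8. Median depth was 81203 counts in the 10 cells and 250868 in the 70. Against its label, then, the rule held 9 cells with at least 5 of the 9 neutrophil markers and with Ccr2 and F13a1 at 0. Neutrophil markers were not confined to those cells, since at least 3 reached 50 CPM in 51 of the 70. Results are for all 80 cells unless the 70 are named.

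**Figure D1:**
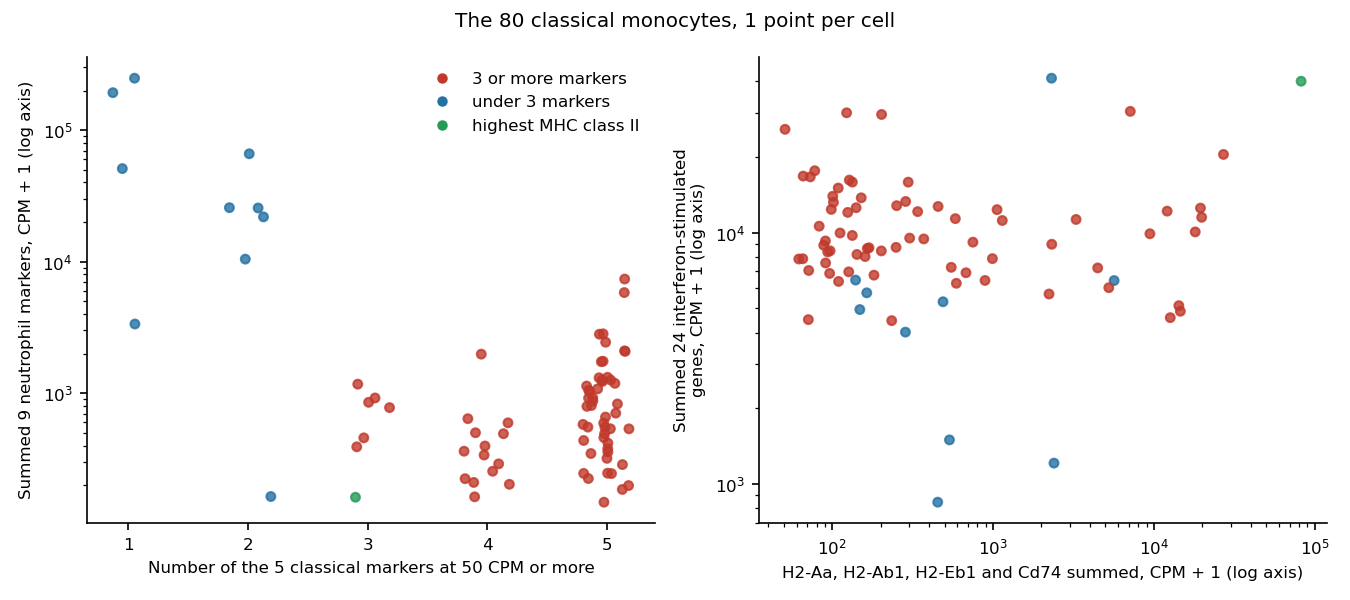
The 80 classical monocytes, 1 point each: left, the number of the 5 markers at 50 CPM or more (points spread sideways for clarity) against the summed CPM of 9 neutrophil markers; right, the summed CPM of 4 MHC class II genes against that of 24 interferon-stimulated genes, all on log axes with 1 CPM added. Of the 10 blue cells with fewer than 3 markers, 9 carry at least 5 neutrophil markers, and the green cell has 82386 CPM of MHC class II.

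For other cell types, at least 3 markers reached 50 CPM in 60 of the 80 cells for neutrophils (51 of the 70), 30 cells for patrolling monocytes, 2 cells for conventional dendritic cells, 1 for plasmacytoid dendritic cells and 1 for B cells, and in 0 cells for macrophages, T cells, NK cells, platelets, endothelial cells, fibroblasts and cardiomyocytes. Among the 777 other kept cells the same was so in 347 for neutrophils, 107 for patrolling monocytes and 165 for B cells. For conventional and plasmacytoid dendritic cells it was so in 20 and 3 of them. The classical monocyte with B cell markers held 6 of 7, with Cd79a at 1044 CPM. The NK cell genes Ncr1 and Klre1 and the progenitor gene Elane were at 0 in all 80. Patrolling markers summed to 633 CPM in classical monocytes, against 1127 CPM in all other cells.

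1 cell, the second deepest with 453972 counts, weighed on several results. It passed the rule with 234 CPM of Ly6c2 and 99.1 CPM of Csf1r and held 3 of the 5 markers, but had 17.6 CPM of Chil3, 6.61 of F13a1 and 39.7 of Lyz2. It held 3 of the 7 conventional dendritic cell markers in the matrix, 82386 CPM of 4 MHC class II genes and 40022 CPM of interferon-stimulated genes. Of all classical monocyte counts it supplied 92.1% of Ccl5, 88.8% of Ccl4, 83.4% of Hspa1a, 75.9% of Ly6a and 63.9% of H2-Eb1. It is called the dendritic-marker cell here, and values without it are named as such. No classical monocyte held more than 3 of the dendritic markers, and 2 held 3, this cell included. The name therefore does not set it apart by those markers alone.

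**Figure D2:**
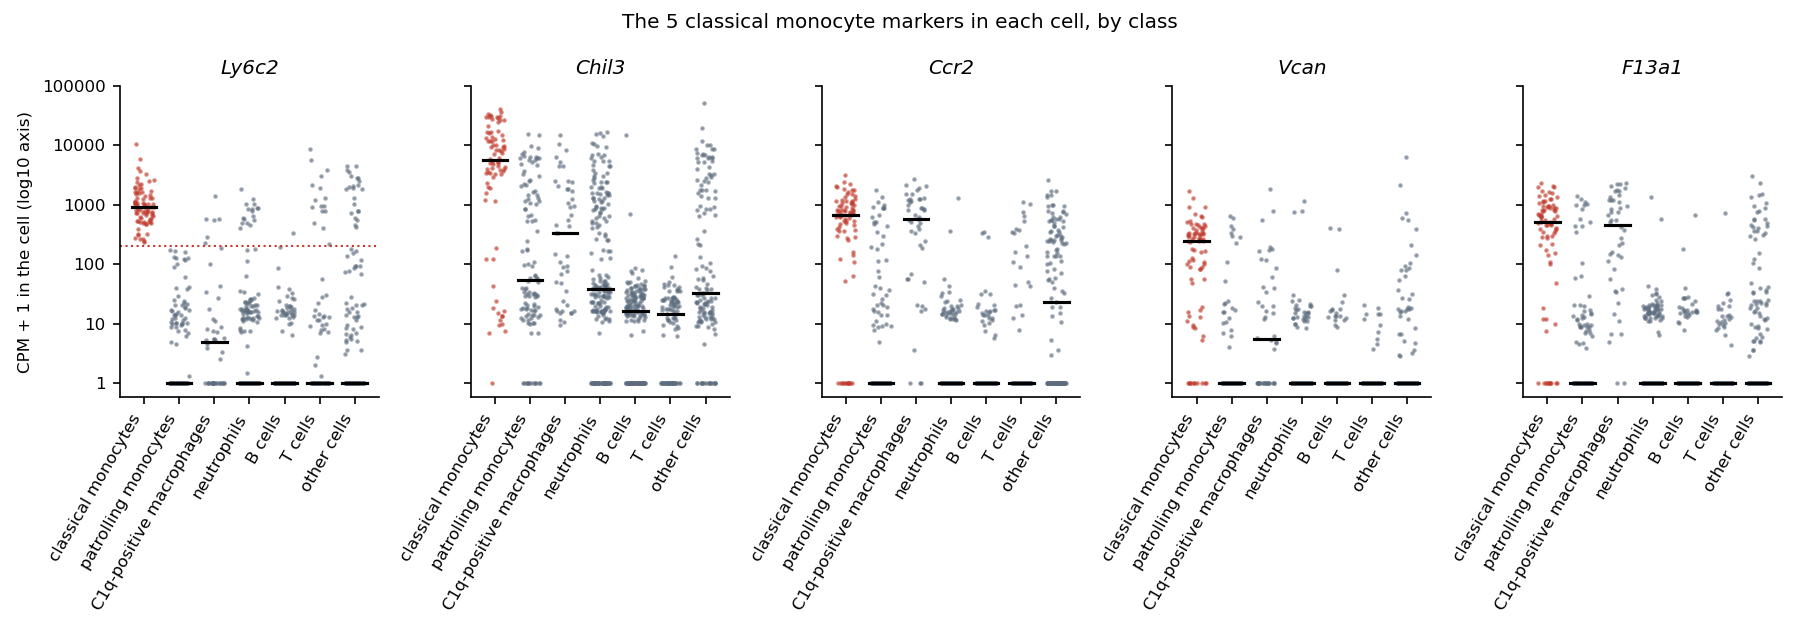
Level of each of the 5 markers in every cell, by class (CPM + 1, log10 axis), with the black bar at the class median and the dotted line at the 200 CPM limit for Ly6c2. In classical monocytes the medians were 922 CPM for Ly6c2, 5666 for Chil3, 680 for Ccr2, 247 for Vcan and 510 for F13a1, while C1q-positive macrophages had medians of 581 for Ccr2 and 465 for F13a1.

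Chil3, a secreted chitinase-like protein, was the most abundant of the 5 markers and the most uneven. It ran from 0 to 40543 CPM with a median of 5666 in classical monocytes, and 67 of the 80 had 50 CPM or more. Summed over cells it stood at 11320 CPM (interval 11271 to 11368) in classical monocytes and 1384 CPM in all other cells, a ratio of 8.18 (8.12 to 8.24). At equal depth 86.2% of classical monocytes had a Chil3 count, as did 60.7% of patrolling monocytes and 78.3% of macrophages. B cells, which should lack it, showed it in 35.8% of cells, at a median depth of 67821 counts against 220409 in classical monocytes.

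Ccr2, the receptor that draws these cells towards Ccl2, had a median of 680 CPM and a highest value of 3174 in classical monocytes. Its summed level was 809 CPM in classical monocytes, 159 CPM in patrolling monocytes, 803 CPM in macrophages and 238 CPM in all other cells. At equal depth 85.0% of classical monocytes and 84.8% of macrophages had a Ccr2 count, against 8.48% of B cells. Ccr2 thus set the classical monocytes apart from the patrolling ones and not from the C1q-positive macrophages.

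F13a1, the A subunit of the fibrin-crosslinking factor XIII, was likewise close in macrophages. It stood at 679 CPM in classical monocytes, 118 CPM in patrolling monocytes, 762 CPM in macrophages and 190 CPM in all other cells, and its highest cell had 2292 CPM. Vcan, a large matrix proteoglycan, differed from macrophages too, with 274 CPM in classical monocytes, 52.8 CPM in patrolling monocytes, 65.0 CPM in macrophages and 35.4 CPM in all other cells. At equal depth 76.2% of classical monocytes had a Vcan count, against 34.8% of macrophages, 14.3% of patrolling monocytes and 3.03% of B cells.

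Across all genes a gene was counted as higher or lower when the ratio of the summed levels, with 20 CPM added to both sides, was at least 2 or at most 0.5 and the gene had at least 50 counts. Against all other cells 124 of 18243 genes (0.68%) were higher in classical monocytes and 344 (1.89%) lower. Among the 3018 genes that reached 50 CPM on either side the shares were 3.64% and 7.92%. The rule used this contrast, so the counts describe the 80 cells and test nothing. With the 70 cells the counts were 136 higher (0.747% of 18208 genes) and 390 lower (2.14%).

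Of the other genes with the highest ratios, Ly6a2 stood at 221 CPM in classical monocytes and 21.7 CPM in all other cells, a ratio of 10.2 (9.62 to 10.8). Lyz2, the lysozyme of myeloid cells, reached 26581 CPM in classical monocytes and 5607 CPM in all other cells, and its 80 cells ran from 0 to 53206 CPM with a median of 26196. Plac8, a small cysteine-rich protein of myeloid cells, stood at 4338 CPM in classical monocytes and 981 CPM in all other cells. At equal depth 98.75% of classical monocytes had a Lyz2 count, against 68.5% of B cells, 90% had a Plac8 count, against 80.6%, and 51.2% had a Ly6a2 count, against 0.606%. The share with Plac8 was thus close to that in B cells, which had 1334 CPM of it.

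Others among the leading genes were carried by fewer cells. Prtn3, the granule protease proteinase 3 known from myeloid precursors, stood at 94.95 CPM in classical monocytes and 10.7 CPM in all other cells, and 30 of 80 cells had 50 CPM or more. Mmp19, a matrix metalloproteinase, stood at 104 CPM in classical monocytes and 12.4 CPM in all other cells with 27 cells at 50 CPM or more, and Serpinb10, an intracellular protease inhibitor, at 139 CPM in classical monocytes and 16.3 CPM in all other cells with 35. Their medians over the 80 cells were 0 for Prtn3, 1.81 for Mmp19 and 2.43 CPM for Serpinb10. So these summed levels describe a portion of the classical monocytes and not the typical cell.

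Between these extremes lay the membrane proteins Ms4a4c (573 CPM in classical monocytes, 109 CPM in all other cells) and Ms4a8a (213 CPM, against 41.9 CPM). Cd177, a surface protein best known from neutrophils, stood at 161 CPM in classical monocytes and 24.98 CPM in all other cells, Mgst1, a membrane-bound glutathione transferase, at 495 CPM and 107 CPM, and the secreted protein Dmkn at 228 CPM and 35.1 CPM. Cd177 did not depend on the 10 doubtful cells, since its log2 ratio with 20 CPM added was 2.01 over 80 cells and 2.07 over 70.

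**Figure D3:**
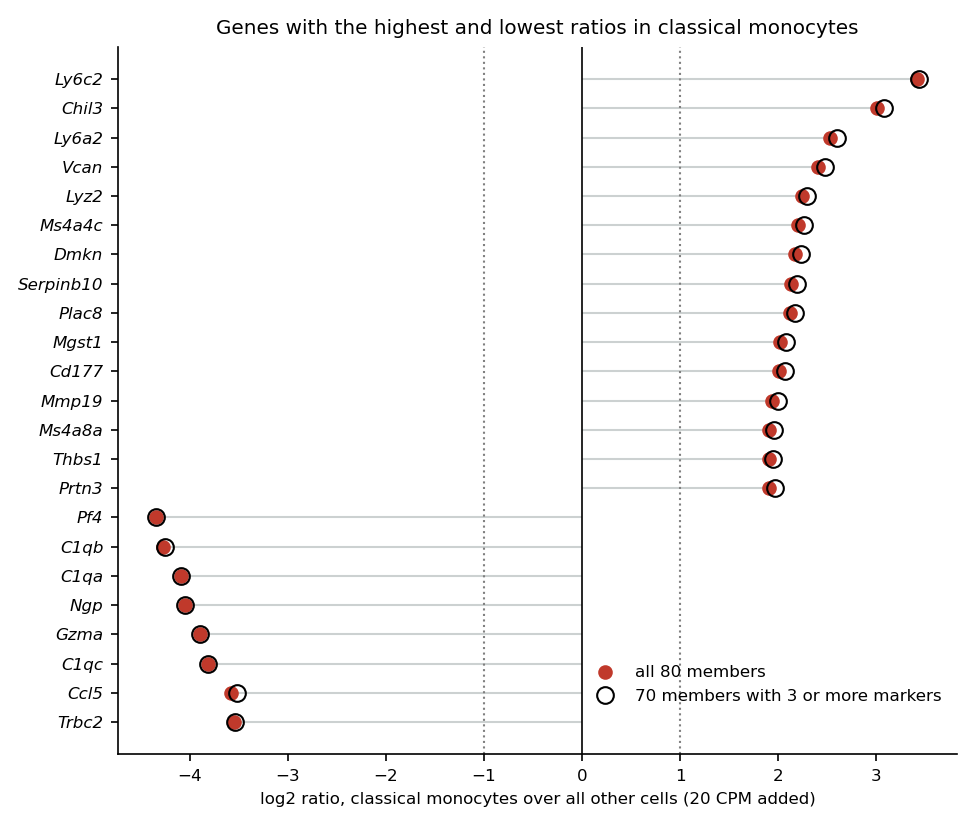
The 15 genes with the highest and the 8 with the lowest log2 ratio of classical monocytes over all other cells, with 20 CPM added, over all 80 cells (filled) and the 70 with 3 or more markers (open); dotted lines mark the ratios counted as higher or lower. The highest is Ly6c2 at 3.42 and the lowest Pf4 at −4.34, and the open and filled points lie close together. The ratios of Ly6c2 and of the C1q genes follow from the rule that chose the cells.

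The lowest ratios were those of genes that define other cells of the pool. Pf4, a chemokine of platelets and some macrophages, stood at 3.999 CPM in classical monocytes and 467 CPM in all other cells, and the granule protease Gzma of cytotoxic lymphocytes at 1.46 CPM and 300 CPM. Ngp, a granule protein of immature neutrophils, had 0.937 CPM in classical monocytes and 328 CPM in all other cells, and Trbc2, a T cell receptor chain, 1.53 CPM and 231 CPM. Ccl5 stood at 71.8 CPM in classical monocytes and 1076 CPM in all other cells, and at 5.82 CPM without the dendritic-marker cell.

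Among recruitment receptors and adhesion molecules, 1 of 18 genes with enough counts (Ccr2) was higher than in all other cells and 3 were lower. Of all 18243 genes 0.68% were higher and 1.89% lower, and of those at 50 CPM or more 3.64% and 7.92%. The list's median log2 ratio was −0.02, beside −0.05 over all genes. Over the 70 cells, and over the 79 without the dendritic-marker cell, 4 were lower, with Ccrl2 added. The lower ones over all 80 were Cxcr4, a receptor that holds cells in the marrow (118 CPM in classical monocytes, 262 CPM in all other cells), the adhesion ligand Icam1 (50.1 CPM, against 185 CPM) and Pecam1. Against patrolling monocytes the list leaned further down, with 3 of 18 higher, 9 lower and a median of −0.87, beside 1.26% of 12476 genes higher, 3.43% lower and a median of −0.05 over the whole comparison. There Ccr1 (268 CPM in classical monocytes, 109 CPM in patrolling monocytes) was higher beside Ccr2. The integrin chains Itgal, Itgax, Itga4, Itgb1 and Itgb2 were all lower, for example Itgal at 129 CPM in classical monocytes and 409 CPM in patrolling monocytes. Cx3cr1, the fractalkine receptor used to recognise patrolling monocytes, stood at 117 CPM in classical monocytes and 190 CPM in patrolling monocytes and did not reach the fold.

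Of 20 growth factor and cytokine receptors, 0 were higher and 1 lower than in all other cells, beside 3.64% and 7.92% of genes at 50 CPM or more. Against macrophages 3 were higher (Csf3r, Il6ra and Il1r2), beside 1.34% of all genes. The lower one was Csf3r, the G-CSF receptor of neutrophils, at 119 CPM in classical monocytes (69.1 CPM in the 70) and 353 CPM in all other cells. Over the 70 cells Il1r2 was lower too, and Csf3r no longer reached the fold over macrophages. Csf2ra, a chain of the GM-CSF receptor, stood at 361 CPM in classical monocytes and 235 CPM in all other cells.

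Of 21 transcription factors, 1 was higher than in all other cells and 2 were lower, beside 3.64% and 7.92% of genes at 50 CPM or more. The lower ones, Klf2 and Nr4a1, both lay at the fold. The log2 ratio of Klf2 was −1.02, and it missed the fold with −0.99 without the dendritic-marker cell and under the 4 shifted limits for Ly6c2, C1q and Csf1r, where it lay between −0.97 and −0.82. That of Nr4a1 was −1.0005, and −0.84 with Ly6c2 of at least 100 CPM and −0.98 with each cell weighted alike. Irf8 was lower as well over the 70 cells, at −1.01 in place of −0.98. Nr4a1, on which patrolling monocytes depend, ran from 4.88 to 1167 CPM with a median of 202 in classical monocytes. Summed, it stood at 259 CPM in classical monocytes and 1087 CPM in patrolling monocytes, whose median cell had 879 CPM. Against patrolling monocytes 6 of the 21 were lower, Cebpb, Klf2, Klf4, Nr4a1, Zeb2 and Pou2f2, and 1 was higher, beside 3.43% and 1.26% of all genes. Without the dendritic-marker cell Klf2 missed the fold there too (−0.98). Spi1, which encodes PU.1, stood at 483 CPM in classical monocytes and 495 CPM in all other cells.

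Coagulation, matrix and matrix-protease genes reached the fold in 1 direction only: of 21, 10 were higher than in all other cells and 0 lower. Of all genes 0.68% were higher and 1.89% lower, and of those at 50 CPM or more 3.64% and 7.92%. The list's median log2 ratio was 0.59, and its levels summed to 6204 CPM in classical monocytes and 2246 CPM in all other cells. Beside the markers F13a1 and Vcan the 10 higher genes were F10, F5, Fn1, Thbs1, Tgfbi, Mmp8, Mmp19 and Timp1. Thbs1, thrombospondin 1, a matrix protein that can activate latent TGF-beta, ran from 0 to 8305 CPM with a median of 1117 in classical monocytes and stood at 1787 CPM summed, against 417 CPM in patrolling monocytes, 1059 CPM in macrophages and 463 CPM in all other cells. Fn1, fibronectin, stood at 603 CPM in classical monocytes, 54.3 CPM in patrolling monocytes and 647 CPM in macrophages, and 68 of the 80 cells had 50 CPM or more. Tgfbi, a secreted matrix adapter, stood at 972 CPM in classical monocytes and 389 CPM in all other cells.

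The clotting factors of this list were less abundant. F10 stood at 290 CPM in classical monocytes, 202 CPM in patrolling monocytes, 57.9 CPM in macrophages and 68.2 CPM in all other cells, and F5 at 116 CPM in classical monocytes and 40.3 CPM in all other cells. F3, tissue factor, and F7 had 0.703 and 3.24 CPM in classical monocytes. Against patrolling monocytes 9 of 20 genes of the list were higher and 0 lower, beside 1.26% and 3.43% of all genes. Against macrophages 5 of 20 were higher and 4 lower, with 1.34% of 12353 genes higher and 2.32% lower. The matrix genes Fn1, F13a1, Thbs1, Tgfbi and Timp1 thus did not separate classical monocytes from C1q-positive macrophages, while Vcan, F10, F5, Mmp8 and Mmp19 were higher than in them. Mmp8 is also among the neutrophil markers; it stood at 269 CPM in classical monocytes and 427 CPM in neutrophils.

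The S100 genes split by gene. S100a4, known from motile cells, stood at 596 CPM in classical monocytes, 197 CPM in patrolling monocytes and 194 CPM in all other cells, and S100a10, a partner of annexin A2, at 1255 CPM in classical monocytes, 276 CPM in patrolling monocytes and 577 CPM in all other cells. S100a8 and S100a9, the 2 chains of calprotectin, were lower than in all other cells. S100a8 stood at 1748 CPM in classical monocytes and 10155 CPM in all other cells, and at 492 CPM in the 70; S100a9 stood at 1432 CPM and 8827 CPM, and at 123 CPM in the 70. The 10 cells therefore supplied most of the classical monocytes' calprotectin counts, and 220 neutrophils were among the other cells. Against macrophages S100a9 had a log2 ratio of 3.64 over 80 cells and 0.30 over 70, and Retnlg, a resistin-like neutrophil protein, 4.09 and −0.09.

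Secreted host defence proteins had 6 of 15 genes higher and 2 lower (Ngp and Camp) than in all other cells. Of all genes 0.68% were higher and 1.89% lower, and of those at 50 CPM or more 3.64% and 7.92%. The list summed to 54678 CPM in classical monocytes and 17455 CPM in all other cells, most of it Lyz2 and Chil3. The other higher genes were Hp, Plac8, Prdx5 and Mgst1. Haptoglobin, Hp, which binds free haemoglobin, stood at 1646 CPM in classical monocytes, 1010 CPM in patrolling monocytes, 137 CPM in macrophages and 648 CPM in all other cells. Its lowest, median and highest cells had 0, 1416 and 6548 CPM. Against macrophages 11 of 13 genes were higher and 0 lower, beside 1.34% and 2.32% of all genes, with a median log2 ratio of 2.58. The 11 included the protease inhibitor Slpi, at 1176 CPM in classical monocytes (901 CPM in the 70) and 65.2 CPM in macrophages.

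Pattern recognition receptors gave 1 gene higher and 1 lower of 22. Of all genes at 50 CPM or more 3.64% were higher and 7.92% lower, so these counts lay near those shares. The scavenger receptor Msr1 stood at 245 CPM in classical monocytes and 92.3 CPM in all other cells, and the lipid scavenger Cd36 at 14.5 CPM in classical monocytes, 647 CPM in patrolling monocytes and 141 CPM in all other cells. Cd14, the coreceptor for lipopolysaccharide, stood at 1745 CPM in classical monocytes and 964.9 CPM in all other cells, under the fold. The Fc and complement receptors had 3 of 12 higher than in all other cells and 1 lower. The higher ones were Fcgr1, the high-affinity IgG receptor (203 CPM in classical monocytes, 55.3 CPM in all other cells), Cd93 (152 CPM, against 57.8 CPM) and the complement gene C3 (114 CPM, against 36.0 CPM). Against macrophages 1 of 12 was higher and 2 lower, with a median log2 ratio of −0.07, beside 1.34% and 2.32% of all genes. Against patrolling monocytes 3 were higher and 1 lower, with a median of 0.61, beside 1.26% and 3.43%. Fcgr4, an IgG receptor typical of patrolling monocytes, stood at 167 CPM in classical monocytes and 685 CPM in patrolling monocytes.

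Inflammatory cytokines and chemokines were not higher as a list. Of 20 genes, 1 was higher than in all other cells and 6 lower, beside 0.68% and 1.89% of all genes and 3.64% and 7.92% of those at 50 CPM or more. The list's median log2 ratio was −0.66. Over the 70 cells 9 were lower, with Il1b, Tnf and Ccl3 added and a median of −0.78, and without the dendritic-marker cell 8, with Ccl3 and Ccl4 added and a median of −0.79. The higher one was Ccl9, a Ccr1 ligand, at 1495 CPM in classical monocytes, 399 CPM in patrolling monocytes and 667 CPM in all other cells. Il1b stood at 2113 CPM in classical monocytes (1480 CPM in the 70) and 3640 CPM in all other cells, among which neutrophils had 11122 CPM. Cxcl2, a neutrophil attractant, ran from 4.40 to 47911 CPM in classical monocytes with a median of 236, and to 6255 CPM in the 70. Ccl2, the ligand of Ccr2, stood at 393 CPM in classical monocytes, 73.1 CPM in patrolling monocytes and 2207 CPM in macrophages, and Ccl12 and Ccl7, related Ccr2 ligands, at 6.81 and 48.0 CPM in classical monocytes and 1412 and 1354 CPM in macrophages. Against macrophages 9 of 20 genes of the list were lower, beside 2.32% of all genes, and 10 over the 70 cells. Against patrolling monocytes 5 of 19 were higher, beside 1.26% of all genes. Without the dendritic-marker cell 2 of 19 were higher, and Ccl4 and Ccl5 had log2 ratios of −0.22 and −0.59.

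Interferon-stimulated genes had 13 of 23 genes higher and 0 lower than in all other cells, beside 0.68% of all genes and 3.64% of those at 50 CPM or more that were higher, with a median log2 ratio of 1.05, and summed to 11833 CPM in classical monocytes and 4742 CPM in all other cells. Without the dendritic-marker cell 7 were higher and the median was 0.57. The 7 were Ifitm3, Ifitm6, Ifi204, Ifi207, Ifi211, Ifi27l2a and Zbp1. Ifit1, Ifit2, Isg15, Irf7, Bst2 and Usp18 no longer reached the fold, so for these 6 the call as higher depends on 1 cell. Their log2 ratios without it stayed above 0, at 0.52 for Ifit1 and for Ifit2, 0.57 for Usp18, 0.69 for Bst2, 0.89 for Isg15 and 0.93 for Irf7. Ifitm3, which restricts virus entry, stood at 4872 CPM in classical monocytes with that cell, 4701 CPM without it and 1509 CPM in all other cells. Ifitm6 stood at 1466 CPM in classical monocytes and 387 CPM in all other cells, and its median cell had 1212 CPM. Members of the Ifitm family and the neighbouring Ifi204, Ifi207 and Ifi211 are related in sequence, so their counts may be shared. Against patrolling monocytes 7 of 23 genes were higher, beside 1.26% of all genes, and 3 without that cell.

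MHC class II antigen presentation genes stood the other way, with 7 of 12 lower than in all other cells and 0 higher. Of all genes 1.89% were lower and 0.68% higher, and of those at 50 CPM or more 7.92% and 3.64%. The list's median log2 ratio was −1.43 (−1.67 without the dendritic-marker cell). The list summed to 5213 CPM in classical monocytes (3209 CPM without that cell), 2315 CPM in patrolling monocytes, 23161 CPM in macrophages and 18806 CPM in all other cells, where 165 B cells were included. H2-Aa, a chain of the class II molecule, stood at 781 CPM in classical monocytes (458 CPM without that cell) and 3605 CPM in all other cells. Cd74, the invariant chain, stood at 2446 CPM (1477 CPM without it) and 8763 CPM. Against patrolling monocytes 5 of 12 were higher, beside 1.26% of all genes, and 2 without the dendritic-marker cell.

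**Figure D4:**
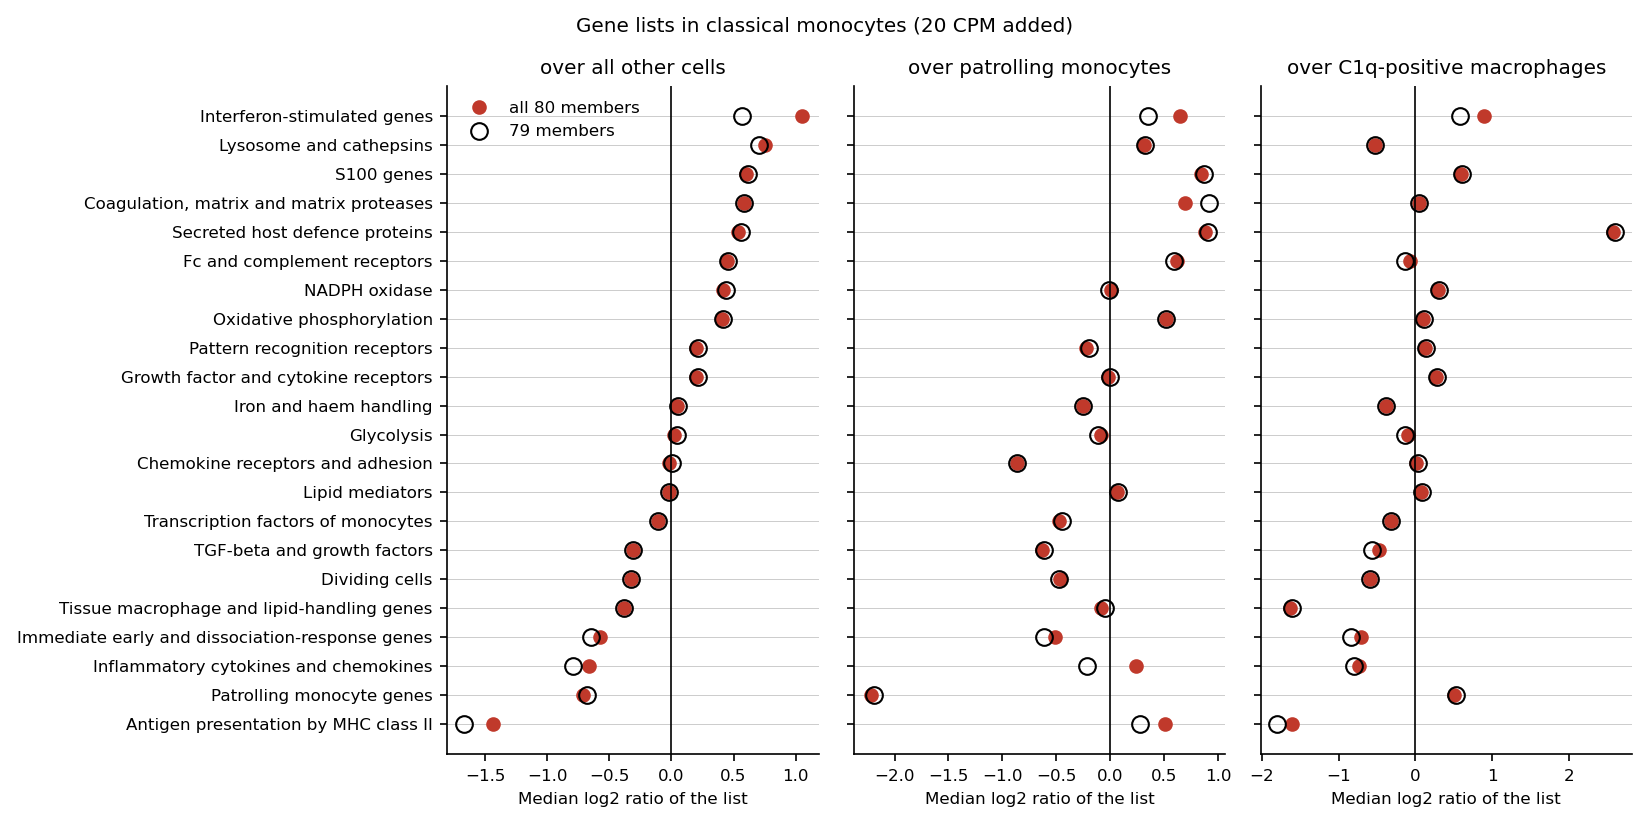
Median log2 ratio, with 20 CPM added, of each of 22 gene lists in classical monocytes over all other cells, patrolling monocytes and C1q-positive macrophages (the scale differs between panels), over all 80 cells (filled) and the 79 without the cell highest in MHC class II (open). Over all other cells the interferon-stimulated genes stand at 0.57 without that cell and at 1.05 with it, and patrolling monocyte genes stand at −2.22 over patrolling monocytes.

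Genes of patrolling monocytes separated the pair of monocyte classes. Of 15 such genes 14 were lower than in patrolling monocytes, with a median log2 ratio of −2.22, but Ace and Treml4 defined that class and Ly6c2 defined this one. Ace, angiotensin-converting enzyme, stood at 27.5 CPM in classical monocytes and 426 CPM in patrolling monocytes. Cd300e, an activating receptor, had 3.46 CPM in classical monocytes and 421 CPM in patrolling monocytes, and the adhesion receptor Adgre4 84.8 CPM and 468 CPM. Pparg, the lipid-sensing nuclear receptor, stood at 2.77 CPM in classical monocytes and 147 CPM in patrolling monocytes. Cd9, a tetraspanin, stood at 101 CPM in classical monocytes (41.2 CPM in the 70) and 759 CPM in patrolling monocytes. Over the whole comparison 157 of 12476 genes were higher and 428 lower.

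Outside the lists, the genes highest in classical over patrolling monocytes after Ly6c2 included Saa3, an acute-phase apolipoprotein, the metallothionein Mt2 and Hopx, a homeodomain cofactor. Saa3 stood at 749 CPM in classical monocytes and 39.8 CPM in patrolling monocytes, with a median cell of 3.94 CPM and a highest of 10177, and 18 cells had 50 CPM or more. Mt2 stood at 682 CPM and 111 CPM, with 38 classical monocytes at 50 CPM or more. Hopx stood at 203 CPM in classical monocytes and 28.8 CPM in patrolling monocytes, with 40 cells at 50 CPM or more. Saa3 and Mt2 in particular were high in some classical monocytes and near 0 in others. Ly6a stood at 252 CPM in classical monocytes and 32.5 CPM in patrolling monocytes, and at 62.1 CPM without the dendritic-marker cell.

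Tissue macrophage and lipid-handling genes had 15 of 19 lower than in C1q-positive macrophages (16 over the 70 cells) and 0 higher, with a median log2 ratio of −1.63. The mannose receptor Mrc1 stood at 1.35 CPM in classical monocytes and 495 CPM in macrophages, and Spp1, osteopontin, at 72.6 CPM and 2253 CPM. Apoe, the lipid carrier, was abundant in both, with 5174 CPM in classical monocytes, 11815 CPM in macrophages and 3591 CPM in all other cells. Its cells ran from 21.4 to 18572 CPM, with a median of 3194. Lgals3, galectin 3, stood at 3167 CPM in classical monocytes and 1202 CPM in all other cells and was the 1 gene of this list higher than in all other cells. Over the whole comparison with macrophages 166 of 12353 genes were higher and 286 lower.

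The remaining lists concern lysosomes, respiration and metabolism. Their counts stand beside 0.68% of all genes higher than in all other cells and 1.89% lower. Of genes at 50 CPM or more the shares were 3.64% and 7.92%. Lysosome and cathepsin genes had 2 of 16 higher than in all other cells, with a list median of 0.75. They were Psap, the saposin precursor (2536 CPM in classical monocytes, 1064 CPM in all other cells), and the cholesterol carrier Npc2 (1042 CPM, against 378 CPM). Lamp1 was higher as well over the 70 cells. Against macrophages 0 of the 16 were higher and 4 lower, with a median of −0.52, beside 1.34% and 2.32% of all genes. Against patrolling monocytes 2 were higher and 1 lower, with a median of 0.31, beside 1.26% and 3.43%. Of 7 NADPH oxidase genes, Cybb, the catalytic subunit of the phagocyte oxidase, was higher, at 974 CPM in classical monocytes and 312 CPM in all other cells. Hvcn1, a proton channel, was lower, as was Ncf1 over the 70. Against patrolling monocytes, and likewise against macrophages, 0 of the 7 were higher and 0 lower. Glycolysis genes had 0 higher and 0 lower of 15 and a median of 0.02, and oxidative phosphorylation genes 0 and 0 of 15 and 0.41. Hp was the 1 of 12 iron and haem genes that was higher, and Slc40a1 was lower over the 70. Lipid mediator genes had 1 of 12 lower, Alox5 (and Ptgs2 over the 70), while Alox5ap, the partner of 5-lipoxygenase, stood at 2156 CPM in classical monocytes and 1191 CPM in all other cells. TGF-beta and growth factor genes had 0 higher and 3 lower of 16, and 4 lower without the dendritic-marker cell; Tgfb1 stood at 333 CPM and 203 CPM.

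Immediate early and dissociation-response genes, which rise when tissue is taken apart, had a median log2 ratio of −0.57 over 16 genes. Jun and Egr1 were lower than in all other cells, beside 1.89% of all genes and 7.92% of those at 50 CPM or more. Dusp1 and Btg2 were lower as well over the 70 cells, which made 4 lower with a median of −0.68, beside 2.14% of all genes. Hspa1a, a heat shock protein, was the only one higher, at 97.5 CPM in classical monocytes and 29.9 CPM in all other cells, and without the dendritic-marker cell it stood at 16.6 CPM. Of 12 genes of dividing cells 0 were higher than in all other cells and 1 was lower. Mki67 had 2.86 CPM, Top2a 0.162 CPM and Ccnb1 0 in classical monocytes, while Pcna, which resting cells also express, had 166 CPM in classical monocytes and 169 CPM in all other cells.

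mCherry is a red fluorescent protein whose transcript is listed in the matrix and whose place in the reporter the labels do not give. It stood at 502 CPM in classical monocytes, 507 CPM in patrolling monocytes, 433 CPM in macrophages and 408 CPM in all other cells. In classical monocytes it ran from 0 to 1603 CPM with a median of 480. At equal depth 96.2% of classical monocytes and 49.1% of B cells had an mCherry count. Ptprc, which encodes CD45, the antigen used in the sort, stood at 689 CPM in classical monocytes and 700 CPM in all other cells. Patrolling monocytes had 1068 CPM of it and macrophages 298 CPM. A Ptprc count was found at equal depth in 96.2% of classical monocytes and 74.5% of B cells.

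The classical monocytes varied widely among themselves. Of 2532 genes ranked by variance relative to genes of like mean, the first 8 were Chil3, Cxcl2, Mt2, Ifi27l2a, Saa3, H2-Aa, Lrg1 and Il1r2. Over the 70 cells these took places 1, 13, 6, 12, 3, 4, 5 and 20 of 2512, so each stayed among the first 20 without the doubtful cells. Lrg1, a secreted leucine-rich glycoprotein, ran from 0 to 3517 CPM with a median of 388. Il1r2, the decoy receptor for interleukin-1, ran from 0 to 13594 CPM in the 80 cells and to 3453 CPM in the 70, with medians of 282 and 230 CPM.

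MHC class II transcripts were concentrated in a minority of the cells. The 4 genes H2-Aa, H2-Ab1, H2-Eb1 and Cd74 summed to 49.8 CPM in the lowest cell, 241 CPM in the median cell and 82386 CPM in the highest. In 21 cells the sum was 1000 CPM or more, and these held 96.6% of the classical monocytes' class II counts. The dendritic-marker cell alone held 44.3%, and without it the other 20 cells held 94.0% of the rest. The next highest cells after the dendritic-marker cell had 27108, 19834, 19495 and 18082 CPM, with 4 or 5 of the 5 markers each. In the same order they held 2, 0, 1 and 2 of the conventional dendritic cell markers. Thus class II transcripts were found in cells with 4 or all 5 of the classical markers too. The summed level was 4562 CPM in classical monocytes (2605 CPM without the dendritic-marker cell and 4377 CPM without the cell with B cell markers), 1693 CPM in patrolling monocytes, 21763 CPM in macrophages and 17650 CPM in all other cells.

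Some genes went together across cells. The following are Spearman correlations over the 70 cells, with the value over all 80 in brackets; the cells share 1 library and differ in depth, and they are given as a description. Chil3 went with Thbs1 (0.64; 0.64), with Fn1 (0.46; 0.52) and with S100a8 (0.51; 0.28). F13a1 went with Fn1 (0.54; 0.67), and Plac8 with the interferon-stimulated genes (0.54; 0.58). Cells with more MHC class II had less Ly6c2 (−0.41; −0.40), less Lyz2 (−0.45; −0.44) and less Vcan (−0.31; −0.36). The single gene H2-Aa ran against Vcan (−0.51; −0.39) and Ly6c2 (−0.26; −0.19). The correlation with depth over the 70 cells was −0.45 for Csf1r, 0.20 for Ly6c2, 0.09 for Chil3 and −0.16 for the class II sum.

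**Figure D5:**
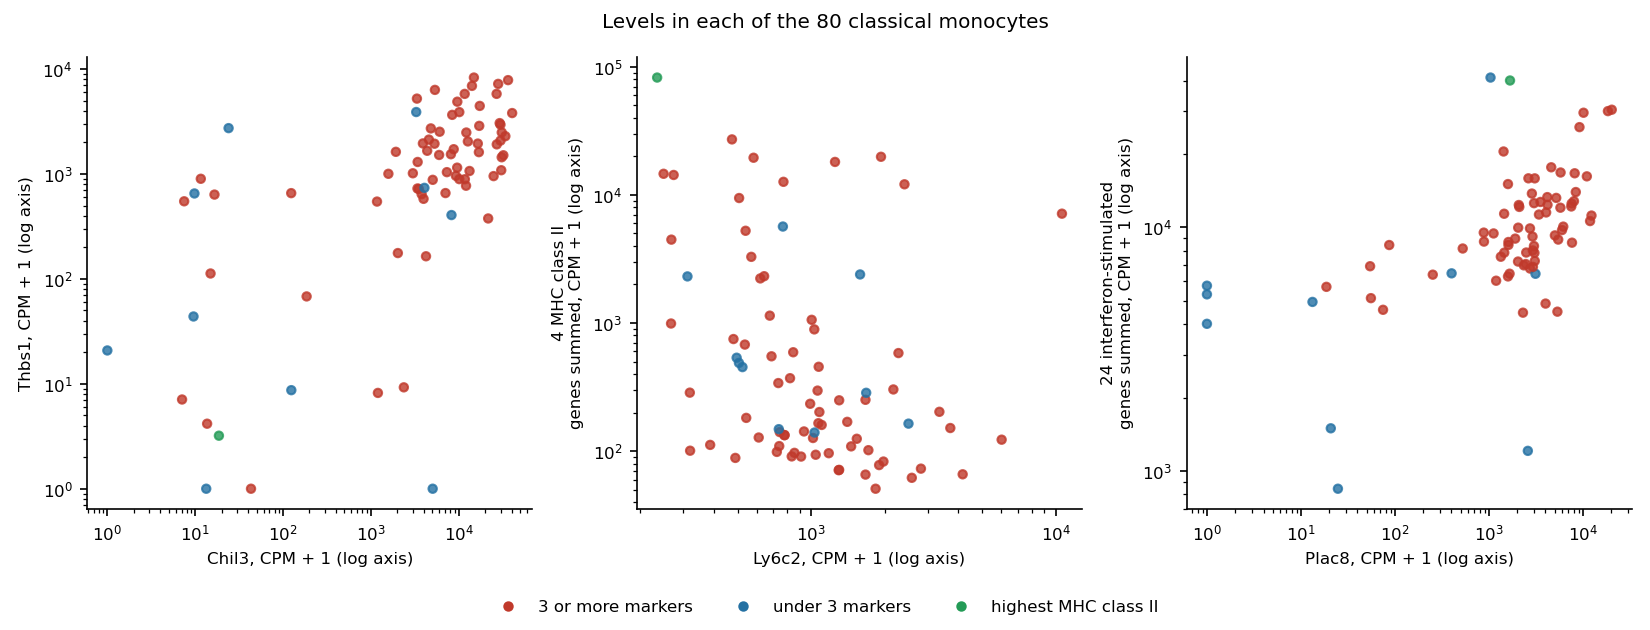
Levels in each of the 80 classical monocytes (CPM + 1, log axes), with cells under 3 markers in blue and the cell highest in MHC class II in green. Left, Chil3 against Thbs1, which correlate at 0.64 over the 70 cells with 3 or more markers; middle, Ly6c2 against the 4 MHC class II genes (−0.41); right, Plac8 against the 24 interferon-stimulated genes (0.54).

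Each cell name carries a tag call of the authors, but the labels do not say which sorted fraction received which tag, and the values below go by the names alone. Of the 80 cells 37 were named A951 (11.7% of its 316 kept cells, interval 8.38% to 15.8%), 24 A965 (9.72% of 247), 9 A952 (6.72% of 134), 6 A953 (5.26% of 114) and 4 doublet (8.70% of 46). The median Chil3 level was 8424 CPM in the cells named A951, 4601 in those named A965, 3779 in those named A952 and 7734 in those named A953. The ranges overlapped, since the highest cell of each of these names had 29885 CPM or more and the lowest 17.6 CPM or less. The median H2-Aa level was 241 CPM in the 9 cells named A952, which include the dendritic-marker cell, and between 11.1 and 18.7 CPM under the other names. All 80 barcodes were in the hashtag library. There the named tag had the highest count in 37 of 37 cells named A951 and 7 of 9 named A952, but in 1 of 6 named A953 and 3 of 24 named A965. Tag A951 was high under other names too, with a median of 57 counts in cells named A953 and 65.5 in those named A965. Their own tags had medians of 21 and 8. Raw counts, not scaled per tag, cannot judge the authors' calls under any name.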

How the data were processed

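Single cells from 1 pool of sorted hearts were measured as 1 transcriptome and 1 hashtag library, so no sample groups, replicates or tests across samples exist. In the transcriptome table the authors deposited estimated counts, not normalized, of 31192 genes in 878 cells; 69.8% of the values above 0 are whole. In the hashtag table the authors deposited whole-number counts of each tag in 1000000 barcodes. The submitters' processing notes list cutadapt 4.1, STARsolo 2.7.10b, STAR, R 4.3.1 and GRCm39, with no role given. The sources used here leave unsaid whether molecules or reads were counted. If reads were, the intervals are too narrow.

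The cells, the gene lists and the comparison classes were chosen with earlier results of these data known. Each class's counts were added up over its cells and expressed as CPM. Levels carry exact Poisson intervals, and shares and ratios exact Clopper-Pearson ones, at 95%, on sums rounded to whole numbers. A ratio is that of the CPM values; log2 ratios and the call as higher or lower use 20 CPM added to both sides, a ratio of at least 2 or at most 0.5, and at least 50 counts over both classes. No p-value is given, since cells of 1 library are not replicates. For shares of cells with a gene, each cell was thinned to 25000 counts with seed 7, and no kept cell was shallower. Cells named doublet stayed in, and no doublet caller was run. The 22 lists and 17 marker lists were described by counts and medians.

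Genes were named by rule: the 5 markers and the genes of the selection; up to 4 per list past the fold, or else the highest by level, at 50 CPM or more; the 15 highest and 8 lowest against all other cells, 12 and 12 against patrolling monocytes and 6 and 6 against macrophages; the 8 most variable; mCherry and Ptprc. All other genes named were chosen after their values were seen. Some genes that the rule names are not reported here. The ratio intervals were tried on simulated counts drawn with Poisson error alone, which is the error they assume. That trial says nothing about fractional counts or differences between cells. Python 3.11.15, numpy 2.4.6, pandas 2.3.3, scipy 1.17.1 and matplotlib 3.10.9 were used.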

Additional observations from a re-analysis of the deposited data

How the results depend on the processing

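The limits of the rule were moved, and the classical monocytes then numbered 67 (Ly6c2 of at least 500 CPM), 94 (at least 100 CPM), 78 (C1q sum under 50 CPM), 58 (Csf1r of at least 150 CPM), 76 (no cells named doublet) and 80 (mitochondrial share of at most 10%), in place of 80. Weighting each cell alike gave 209 genes higher than in all other cells in place of 124, 115 of them shared, and 572 lower than in macrophages in place of 286. Adding 1 CPM in place of 20 gave 713 genes higher and 3454 lower than in all other cells, in place of 124 and 344, by counting scarce genes. Without thinning 98.75% of classical monocytes had a Chil3 count, in place of 86.2%, and 87.5% a Vcan count, in place of 76.2%. Of 75 named genes past the fold against all other cells, 64 stayed past it with each cell weighted alike, when Hp, Cxcr4, Nr4a1, Jun and Cxcl2 were among those lost, and 69 to 75 under the other alternatives, 5 of which lost Klf2.

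The log2 ratio of Hspa1a to all other cells turned to −0.83 with Ly6c2 of at least 500 CPM, −0.88 with a C1q sum under 50 CPM, −0.80 with Csf1r of at least 150 CPM, and −0.45 without the cell with the most counts of the gene, which is the dendritic-marker cell. Leaving out the 10 cells with fewer than 3 markers and leaving out the dendritic-marker cell were chosen after seeing the data. Over the 70 cells the ratios to macrophages were −0.11 for Pglyrp1 and −0.093 for Retnlg. Without the dendritic-marker cell the ratios to patrolling monocytes were −0.59 for Ccl5 and −0.22 for Ccl4, and that of Ccl5 to macrophages −0.33. In each of these the few cells that carried the gene were left out by construction. No paired analysis was possible because there is 1 transcriptome library and no replicate groups.

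With 1 library of pooled cells, no value shows what another heart or a heart without TAC would give. Cells near the limits pass or fail by counting error, and genes at under 20 CPM in both classes could not reach the fold.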

Other observations

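Among markers of myeloid progenitors, Prtn3 lay above its level in the rest of the pool, and the sum of the others did not. The 7-gene list, of which 6 were in the matrix, summed to 99.0 CPM in classical monocytes and 17.0 CPM in all other cells, with a median cell of 3.95 CPM and a highest of 736 CPM. Without Prtn3 the other 5 summed to 4.003 CPM in classical monocytes and 6.30 CPM in all other cells. Prtn3 stood at 94.95 CPM in classical monocytes, 9.18 CPM in patrolling monocytes, 12.9 CPM in macrophages and 14.6 CPM in neutrophils, while Elane was at 0. No cell reached 50 CPM for more than 2 of the markers.

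Ear2, a ribonuclease of the patrolling monocyte list, ninth among the most variable genes, had a median of 0 and a highest value of 1457 CPM in classical monocytes, with 30 cells at 50 CPM or more. It stood at 171 CPM in classical monocytes and 885 CPM in patrolling monocytes.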
